A study of Mus musculus with 18 samples.

Results

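The genes described here encode 10 neuropeptide precursors of the cerebral cortex, Adcyap1, Pnoc, Tac1, Nts, Cck, Grp, Sst, Npy, Vip and Penk. The members were all probe sets that the array annotation assigns to one of these symbols alone, which gave 10 of 18828 named genes and 12 of 45137 probe sets other than controls, 10 on array set A and 2 on array set B. Each gene had 1 probe set on set A, and Adcyap1 and Tac1 each had a further one on set B. The study exposed cultured mouse cortical neurons to potassium chloride (KCl) for 0, 1 or 6 h. Raised external potassium depolarizes the membrane, and the series text gives the aim as opening L-type voltage-sensitive calcium channels while inhibitory synapses form. The cultures were of postnatal day 0 mice per the labels, which also call them embryonic, and all were kept for 7 days in vitro. The sample labels give 55 mM KCl and the series text 50 mM. Neither strain, sex nor genotype is named. Arrays of 3 replicates covered each time on both sets, and the series text speaks of 3 independent experiments. The 0 h cultures were the untreated controls. No untreated cultures are named at 1 h or 6 h, so time in culture and KCl cannot be told apart.

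Neuropeptides are cut from larger precursor proteins, stored in dense-core granules and released when strong activity raises intracellular calcium. They then act on G protein-coupled receptors of the same or neighbouring cells. In the cortex, somatostatin, vasoactive intestinal peptide, neuropeptide Y and cholecystokinin mark classes of inhibitory interneurons, although cholecystokinin is also made by excitatory cells. Depolarization and cyclic AMP act on several of these genes through the transcription factor CREB, which binds the cyclic AMP response element TGACGTCA and shortened forms of it. AP-1, a dimer of Fos and Jun proteins, binds TGAGTCA.

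Promoter sequence was available for 7 of the 10 genes, in 8 windows of 300 bases that run from 250 bases before the annotated start to 50 after it. Pnoc, Penk and Grp had no window. The windows are from RefSeq on build GRCm38.p6. TGACGTCA, its first 7 bases TGACGTC, its first 5 bases TGACG and the AP-1 sequence TGAGTCA were searched on both strands. These 4 motifs were picked with the promoters and the array results already known. TGACG lies within TGACGTC, and both lie within TGACGTCA, while TGAGTCA is separate from them. Windows of 5 genes are printed 5′ to 3′ on the gene's strand. They are those of Adcyap1, Tac1 and Nts, whose signal was higher at 6 h of KCl than at 0 h, and of Sst and Vip, which hold the longer motifs but did not pass that test. Capitals mark the motif matches, and CGTCA is TGACG read on the opposite strand. Adcyap1 lies at chr17:93198767-93199066 on the plus strand, Tac1 at chr6:7554811-7555110 on the plus strand and Nts at chr10:102490369-102490668 on the minus strand. Sst lies at chr16:23890795-23891094 on the minus strand and Vip at chr10:5638968-5639267 on the plus strand.
Adcyap1: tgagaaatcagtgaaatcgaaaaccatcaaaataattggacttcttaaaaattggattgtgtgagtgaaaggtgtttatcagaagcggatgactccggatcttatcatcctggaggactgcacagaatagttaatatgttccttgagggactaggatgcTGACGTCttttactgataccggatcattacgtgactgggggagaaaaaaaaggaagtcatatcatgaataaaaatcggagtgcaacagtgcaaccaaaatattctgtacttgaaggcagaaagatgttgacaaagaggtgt
Tac1: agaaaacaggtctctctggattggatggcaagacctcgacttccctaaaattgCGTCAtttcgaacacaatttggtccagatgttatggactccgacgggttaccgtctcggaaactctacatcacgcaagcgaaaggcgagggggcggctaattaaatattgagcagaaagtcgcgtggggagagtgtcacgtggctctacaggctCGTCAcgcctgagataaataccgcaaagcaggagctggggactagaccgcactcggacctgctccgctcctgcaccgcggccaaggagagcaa
Nts: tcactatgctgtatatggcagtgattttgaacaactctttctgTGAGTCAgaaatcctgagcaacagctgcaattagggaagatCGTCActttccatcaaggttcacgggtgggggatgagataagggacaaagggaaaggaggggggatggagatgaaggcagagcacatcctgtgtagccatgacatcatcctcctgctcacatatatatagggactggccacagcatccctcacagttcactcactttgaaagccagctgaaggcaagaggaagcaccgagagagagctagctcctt
Sst: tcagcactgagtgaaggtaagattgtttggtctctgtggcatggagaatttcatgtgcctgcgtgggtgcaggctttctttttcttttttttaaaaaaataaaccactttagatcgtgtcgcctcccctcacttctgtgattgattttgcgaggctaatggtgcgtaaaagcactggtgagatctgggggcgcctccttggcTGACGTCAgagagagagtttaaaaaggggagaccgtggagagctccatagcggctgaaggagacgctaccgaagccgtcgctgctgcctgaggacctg
Vip: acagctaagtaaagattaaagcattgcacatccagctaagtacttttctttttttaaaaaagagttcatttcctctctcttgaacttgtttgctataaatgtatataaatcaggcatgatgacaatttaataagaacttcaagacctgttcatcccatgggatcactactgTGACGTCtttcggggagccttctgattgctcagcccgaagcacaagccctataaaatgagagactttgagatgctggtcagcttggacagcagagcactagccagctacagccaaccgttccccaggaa

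Sst held the full TGACGTCA, at positions -48 to -41 counted from the base before the start as -1. Adcyap1 held TGACGTC at -91 to -85, and the window of its second annotated start holds the same match at -242 to -236. Vip held TGACGTC at -79 to -73. Tac1 held only TGACG on the opposite strand, at -197 to -193 and -43 to -39. Nts had TGACG on the opposite strand at -166 to -162 and the AP-1 sequence at -207 to -201. Cck had TGACG on the opposite strand at -47 to -43, and none of the 4 motifs was found in the Npy window. Of 32851 such windows, 1.79% held TGACGTCA, 3.21% TGACGTC, 20.8% TGACG and 5.2% TGAGTCA. The longer motifs were found in Adcyap1, whose signal rose, and in Sst and Vip, whose 6 h change did not pass the test. Missing the threshold does not show that Sst and Vip did not change. Sst passed at 6 h in a limma fit that took replicate number as a factor (adjusted p = 0.00268). The part of the motifs in these changes was not tested.

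**Figure D1:**
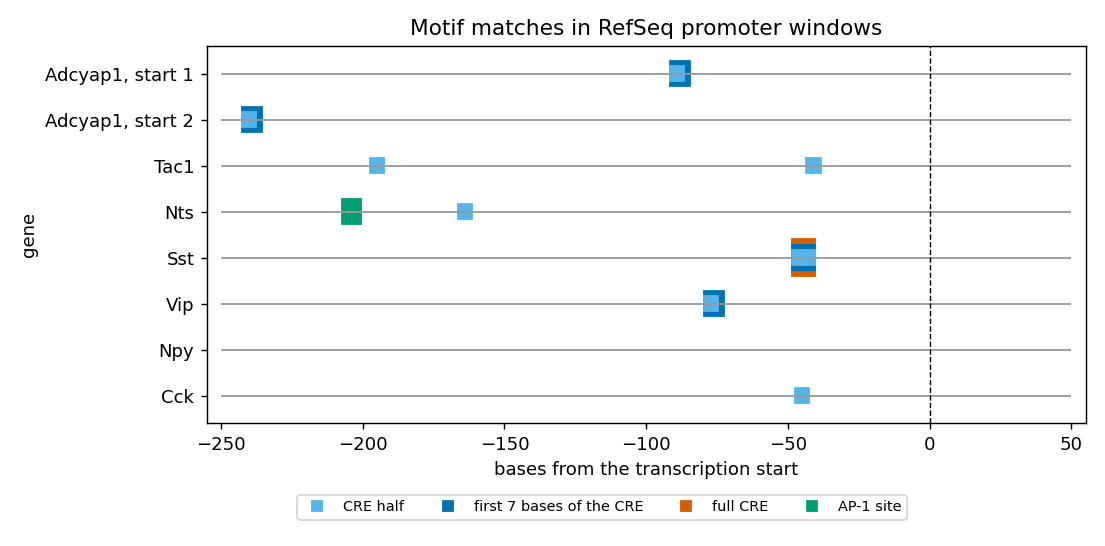
Positions of the motif matches in the promoter windows of 7 neuropeptide genes (x axis, bases from the annotated start; Adcyap1 has 2 windows), with marks for each motif. Sst alone among them holds TGACGTCA, and the Npy window holds none of the 4 motifs.

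Signals are the deposited linear intensities, so folds and tests compare each gene with itself between times. Sums over marker genes and the picking of bright probe sets do mix probe sets, and no level is read from them across genes. Differences are log2 of the signal plus 16, fitted with limma over the 9 arrays of a set, with standard errors and p-values adjusted by Benjamini-Hochberg over all tested probe sets of the set. Array medians ran between 164 and 196 on set A and between 181 and 275 on set B. The median residual standard deviation of log2 signal was 0.28 on set A and 0.73 on set B. Bacterial control probe sets, for which the cultures hold no RNA unless it was spiked in, gave a 95th percentile of 74.8 on set A and 369 on set B, taken here as the background level. Fos, known to respond to depolarization, was 6.58 ± 0.19 log2 units higher at 1 h than at 0 h (SE, adjusted p = 1.74e-10). Arc, another such gene, was below the background level in all 3 arrays at 0 h and at least 17.6-fold higher at 1 h (adjusted p = 4.61e-07). RNA measures moved with KCl time as well. The 5′ over 3′ signal ratio of Actb averaged 0.391 ± 0.122 at 0 h, 0.669 ± 0.0497 at 1 h and 0.574 ± 0.0204 at 6 h (SD, n = 3 each; exact permutation p = 0.1 for each time against 0 h, the smallest that 3 against 3 arrays allow). For Gapdh the ratio was 0.86 ± 0.197 at 0 h, 1.17 ± 0.1 at 1 h and 1.21 ± 0.0458 at 6 h (exact permutation p = 0.2 at 1 h and 0.1 at 6 h against 0 h). The 10 precursors were also fitted with the Gapdh ratio as a covariate, and a call that this fit ends is named beside its gene. Since that ratio itself moved with KCl time, the fit cannot part it from KCl. A call can then be lost while its difference hardly changes.

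The precursor genes fell into a group that rose with KCl, a single gene that fell and a group that did not pass the test. At 6 h against 0 h, Adcyap1, Pnoc, Tac1 and Nts rose, Grp fell, and Sst, Npy, Vip, Penk and Cck did not pass. All 12 member probe sets lay above the filter on dim probe sets. At that time 22.1% of the 16969 probe sets tested on set A passed, 1772 higher and 1981 lower, so 5 of 10 precursors stand against a background in which changes were common. The median log2 difference of the 10 precursors was 0.78, against -0.09 over the 15232 genes measured. At 1 h, Adcyap1 and Pnoc rose and the other 8 did not pass, where 4.17% of probe sets passed, 552 higher and 155 lower. The median of the 10 was then 0.14, against -0.05 over all genes. Between 6 h and 1 h, Adcyap1, Pnoc, Tac1 and Cck were higher at 6 h and none was lower, with 11.6% of probe sets passing. On set B, 4.999% of 16883 probe sets passed at 6 h against 0 h, 0.219% at 1 h against 0 h and 2.35% at 6 h against 1 h. Those are 844, 37 and 397 probe sets, and 1470, 118 and 859 passed with the replicate number as a block. In bulk cultures, a change in the share of cells that make a peptide cannot be told apart from a change in its RNA per cell.

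**Figure D2:**
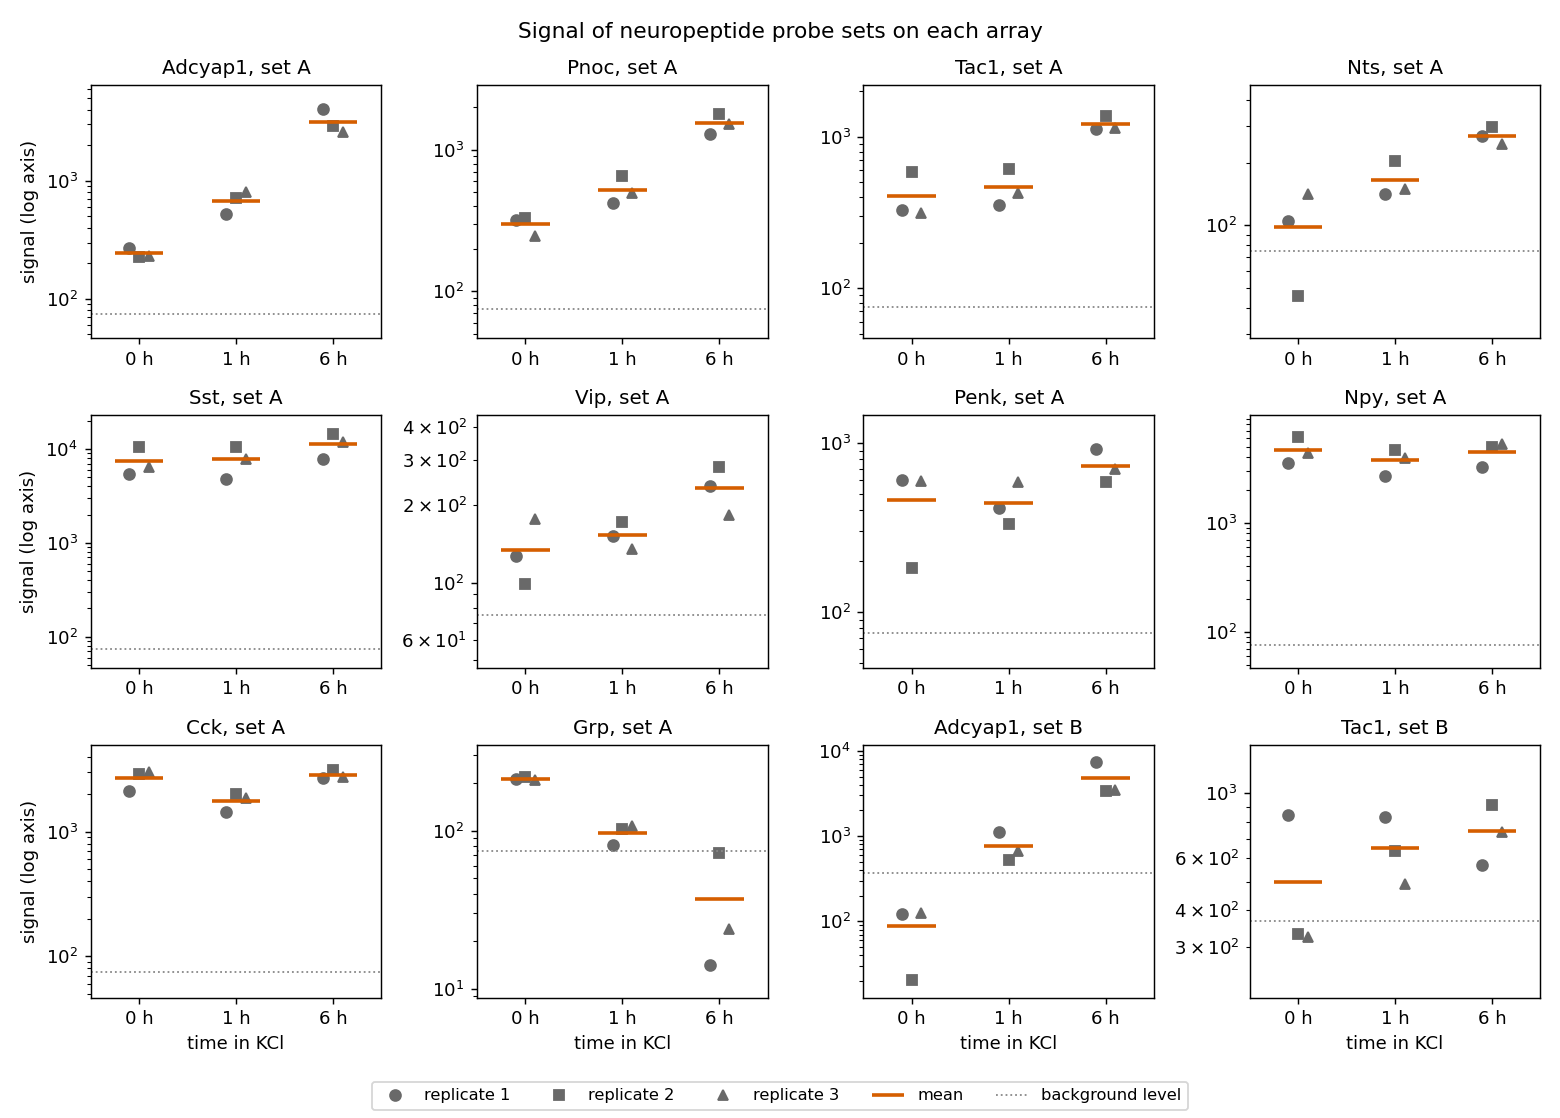
Signal of the 12 member probe sets, 1 panel each, by hours of KCl (x axis) on a log axis of linear intensity (y axis), with 3 arrays per time as points, their mean as a bar and the background level as a dotted line. On set A, Adcyap1 lies between 2579 and 4054 at 6 h, and Grp lies at 72.9 or less in all 3 arrays at 6 h.

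Adcyap1 encodes PACAP, a peptide of the secretin family that raises cyclic AMP in its target cells. Its signals on set A were 269, 227 and 233 at 0 h, 525, 719 and 799 at 1 h, and 4054, 2895 and 2579 at 6 h. No array of one time overlapped those of another. Adcyap1 was 2.66-fold higher at 1 h than at 0 h (log2 1.41 ± 0.19 SE, adjusted p = 0.00132) and 12.1-fold higher at 6 h than at 0 h (3.60 ± 0.19, adjusted p = 1.94e-07). The 6 h value was the tenth in size among the rises on set A, and 4.56-fold above 1 h (2.19 ± 0.19, adjusted p = 2.46e-05). With the Gapdh ratio in the fit, the 1 h difference was 1.50 and no longer passed (adjusted p = 0.0688), while the 6 h difference was 3.70 and passed (adjusted p = 8.67e-05).

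The second Adcyap1 probe set, on set B, read 121, 20.4 and 124 at 0 h, all below the background level of that set. Its signals were 1129, 522 and 663 at 1 h and 7438, 3392 and 3520 at 6 h, again without overlap between times. Since the 0 h signal has only a bound, the 6 h signal was at least 11.6-fold and the 1 h signal at least 1.94-fold above 0 h. The fitted difference at 6 h was 5.76 ± 0.56 (adjusted p = 9.19e-05), a value that rests on the unmeasured 0 h level. At 1 h it was 3.10 ± 0.56 and missed the threshold (adjusted p = 0.0512). Arrays of set B counted as paired by replicate number, a pairing that rests on the replicate 1 arrays. With the number as a block the 1 h difference passed in limma (adjusted p = 0.0029). It also passed with the arrays split by negative values as a block (adjusted p = 0.00422), so the 2 blocks cannot be told apart here. The 6 h signal exceeded that at 1 h by 2.65 ± 0.56 (adjusted p = 0.0267), a call lost without either 1 h replicate 2 or 3 or without any one 6 h array, with adjusted p between 0.0825 and 0.106. It was also lost without the variance trend (0.21), with median centring (0.265), with an offset of 1 (0.178) and on the deposited scale (0.0696). Negative values occur in the 3 replicate 1 arrays of set B alone. Without these arrays the differences were 3.41 at 1 h (adjusted p = 0.0912) and 6.14 at 6 h (adjusted p = 0.000487).

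Pnoc encodes the precursor of nociceptin, the ligand of the opioid-related receptor Oprl1. Its signals were 320, 331 and 245 at 0 h, 422, 650 and 496 at 1 h, and 1292, 1801 and 1524 at 6 h. Arrays of the 3 times did not overlap. Pnoc was 4.94-fold higher at 6 h than at 0 h (log2 2.30 ± 0.19, adjusted p = 9.32e-06) and 2.91-fold higher at 6 h than at 1 h (1.54 ± 0.19, adjusted p = 0.000323). At 1 h it was 1.70-fold above 0 h (0.76 ± 0.19, adjusted p = 0.0444). That early call was lost in 13 of 19 alternatives, among them those without any one 0 h array, 1 h replicate 2 or 3, or any one 6 h array. Its adjusted p lay between 0.0209 and 0.44 over the 19, and the highest was that of the fit with the Gapdh ratio.

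Tac1 encodes the precursor of substance P and neurokinin A, the tachykinins that act on Tacr1 and Tacr2. Its set A signals were 329, 587 and 312 at 0 h, 355, 609 and 426 at 1 h, and 1129, 1380 and 1148 at 6 h. The 6 h arrays lay above all others, while those of 1 h and 0 h overlapped. Tac1 was 3.01-fold higher at 6 h than at 0 h (1.59 ± 0.24, adjusted p = 0.000647) and 2.63-fold higher at 6 h than at 1 h (1.39 ± 0.24, adjusted p = 0.00308). The 1 h difference was 0.20 ± 0.24 (adjusted p = 0.72). The Tac1 probe set of set B did not pass at either time. It read 841, 333 and 324 at 0 h, 828, 637 and 493 at 1 h, and 570, 913 and 739 at 6 h, with 2 of the 3 arrays at 0 h below the background level. The times overlapped there, and the 6 h difference was 0.67 ± 0.40 (adjusted p = 0.523). In replicates 2 and 3 the 6 h signal was 2.74 and 2.28 times that of the same-numbered 0 h array, and in replicate 1 it was 0.678 times. Without the replicate 1 arrays the difference was 1.27 (adjusted p = 0.105). The probe sets of the same gene thus did not give the same call.

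Nts encodes the precursor of neurotensin and neuromedin N. Its signals were low, at 105, 45.8 and 142 at 0 h, 141, 203 and 150 at 1 h, and 269, 296 and 245 at 6 h. The 6 h arrays lay above all others, and 0 h replicate 2 lay below the background level. Nts was 2.70-fold higher at 6 h than at 0 h (1.43 ± 0.32, adjusted p = 0.00715). The 1 h difference was 0.76 ± 0.32 (adjusted p = 0.217). With the Gapdh ratio in the fit the 6 h difference was 0.45 and did not pass (adjusted p = 0.62).

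Grp encodes gastrin-releasing peptide, a bombesin-like peptide that acts on the receptor Grpr. It was the only one of the 10 precursors that fell. Its signals were 212, 220 and 210 at 0 h, 81.3, 103 and 108 at 1 h, and 14.1, 72.9 and 24.0 at 6 h. The 3 times did not overlap, and all 6 h arrays were below the background level. Against that level, the 6 h signal was at least 2.54-fold lower than at 0 h, and the fitted difference was -2.28 ± 0.40 (adjusted p = 0.00145). At 1 h the difference was -1.03 ± 0.40, which did not pass (adjusted p = 0.171). With the Gapdh ratio in the fit the 6 h difference was -2.23 and did not pass (adjusted p = 0.0943).

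Sst, Npy, Vip and Penk, whose peptides mark inhibitory cell classes or act on opioid receptors, did not pass at either time in the main fit. Sst encodes somatostatin, which inhibits release of other transmitters and hormones. Its signals were 5437, 10589 and 6352 at 0 h, 4792, 10526 and 7869 at 1 h, and 7904, 14485 and 11848 at 6 h. The times overlapped, and replicate 2 was the highest at each time. The 6 h difference was 0.63 ± 0.30 (adjusted p = 0.161), with a 95% interval of -0.02 to 1.28, and the 1 h difference 0.04 ± 0.30 (adjusted p = 0.964). Between same-numbered arrays, Sst at 6 h was 1.45, 1.37 and 1.87 times its 0 h signal. Set A did not count as paired. A limma fit that took replicate number as a factor gave 0.63 ± 0.12 at 6 h, which passed (adjusted p = 0.00268). Npy encodes neuropeptide Y. It read 3537, 6126 and 4397 at 0 h, 2675, 4677 and 3968 at 1 h, and 3219, 4986 and 5289 at 6 h, with all times overlapping. Its differences were -0.31 ± 0.24 at 1 h (adjusted p = 0.53) and -0.06 ± 0.24 at 6 h (adjusted p = 0.91).

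Vip encodes vasoactive intestinal peptide, a relative of PACAP that shares the receptors Vipr1 and Vipr2 with it. Its signals were 127, 98.4 and 176 at 0 h, 152, 172 and 135 at 1 h, and 236, 280 and 183 at 6 h. Every 6 h array lay above every 0 h array, although 183 and 176 were close. The 6 h difference of 0.75 ± 0.26 missed the threshold (adjusted p = 0.0605, 95% interval 0.17 to 1.32), and it passed with median centring, with quantile normalization or without 0 h replicate 3 (adjusted p = 0.0463, 0.0462 and 0.0302). With the Gapdh ratio in the fit it was 0.20 (adjusted p = 0.849). Penk encodes proenkephalin, the precursor of the enkephalins. It read 605, 181 and 598 at 0 h, 413, 332 and 584 at 1 h, and 917, 588 and 697 at 6 h, and replicate 2 was lowest at 0 h, 1 h and 6 h. Its 6 h difference was 0.81 ± 0.37 (adjusted p = 0.15), and 0.26 without 0 h replicate 2 (adjusted p = 0.538). It passed with the replicate number as a block (adjusted p = 0.0426) and was -0.01 with the Gapdh ratio in the fit (adjusted p = 0.994).

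Cck, the precursor gene of cholecystokinin, was higher at 6 h than at 1 h, and its lower signal at 1 h than at 0 h did not pass the test. Its signals were 2110, 2888 and 3035 at 0 h, 1440, 2016 and 1869 at 1 h, and 2675, 3124 and 2718 at 6 h. All 1 h arrays lay below all others, and those of 6 h and 0 h overlapped. The difference was -0.59 ± 0.16 at 1 h against 0 h (adjusted p = 0.0619), 0.10 ± 0.16 at 6 h against 0 h (adjusted p = 0.733) and 0.68 ± 0.16 at 6 h against 1 h (1.61-fold, adjusted p = 0.0169). The last call was lost without 1 h replicate 1 (adjusted p = 0.068) and without 6 h replicate 2 (adjusted p = 0.0796). The 1 h fall passed without 0 h replicate 1 (-0.75, adjusted p = 0.0392).

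**Figure D3:**
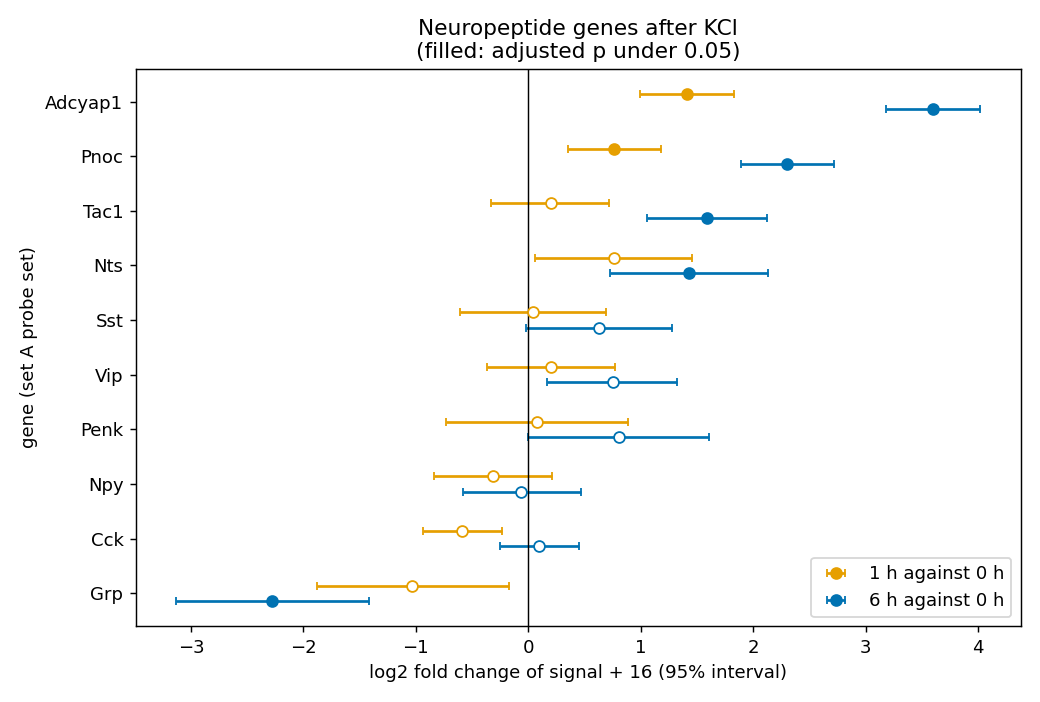
Log2 difference at 1 h and at 6 h against 0 h (x axis) of the 10 set A probe sets (y axis), with points for estimates, filled where the adjusted p passed, and bars for 95% intervals of the limma fit. At 6 h Adcyap1 stands at 3.60 and Grp at -2.28.

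The spread within a time was not the same for all precursors, and for some it followed the replicate number. Averaged over the 3 times, Sst deviated from the mean of its time by -0.50 in replicate 1, 0.49 in replicate 2 and 0.01 in replicate 3 on the log2 scale. Npy gave -0.42, 0.32 and 0.11 in the same order, and Tac1 -0.23, 0.39 and -0.16. Penk ran the other way, with 0.28, -0.58 and 0.30. Adcyap1 and Vip averaged 0.06 or less in size in every replicate, although single arrays deviated by -0.34 to 0.38 for Adcyap1 and by -0.35 to 0.39 for Vip. The 7 inhibitory neuron markers did not share 1 pattern. Lhx6, a transcription factor of the interneurons born in the medial ganglionic eminence, deviated by -0.28, 0.34 and -0.06. Dlx5 gave -0.15, 0.18 and -0.04, Slc32a1 -0.12, 0.02 and 0.10, and Gad1, which makes GABA, -0.10, 0.03 and 0.06. Gad2 (0.02, -0.21 and 0.19), Dlx1 (0.05, -0.07 and 0.02) and Dlx2 (0.07, -0.10 and 0.03) were lowest in replicate 2. The part of a differing share of cells in these deviations was not tested.

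**Figure D4:**
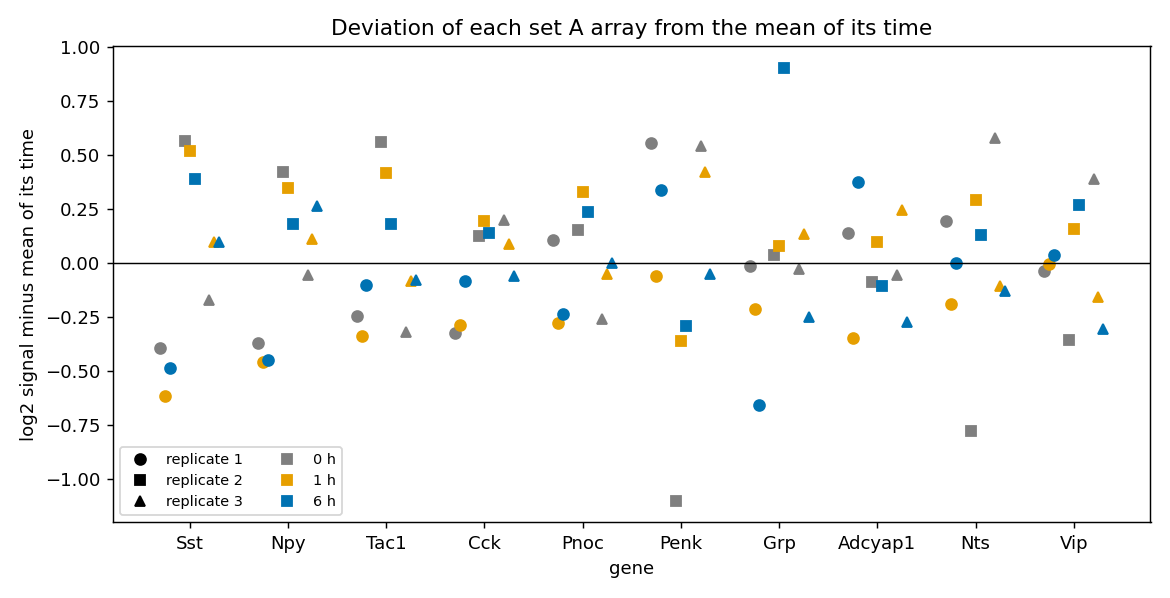
Deviation of each set A array from the mean of its time in log2 units (y axis) for the 10 precursors (x axis), with a shape for each replicate number and a colour for each time. Sst is lowest in replicate 1 and highest in replicate 2 at each time, Npy is lowest in replicate 1 and Penk in replicate 2.

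Markers of the cells that make these peptides did not move as a group. Of 7 inhibitory neuron markers, Gad1 rose at 6 h (1.06, adjusted p = 0.000153) and 2 fell, Lhx6 (-1.43, adjusted p = 0.00131, on 1 of its 2 probe sets) and the homeobox gene Dlx1 (-0.62, adjusted p = 0.0246). At 1 h none of the 7 passed in limma on its brightest probe set, with 1 at an unadjusted p under 0.05. Of the 2 Gad1 probe sets, the other one rose at 1 h. Their summed signal was 5047 to 5827 at 0 h, 5116 to 6048 at 1 h and 7818 to 8269 at 6 h, and no member was at 0. Gad1 made up most of that difference, with 5804 ± 243 at 6 h and 2776 ± 213 at 0 h (SD, n = 3 each). Of 5 measured markers of excitatory cortical neurons none passed at 6 h on its brightest probe set, with 0 at an unadjusted p under 0.05. Of the 2 probe sets of Slc17a6, however, the other one rose at 1 h and at 6 h. The sum of 6 general neuronal markers was 38968 to 40716 at 0 h, 40006 to 43764 at 1 h and 38896 to 40464 at 6 h, so the labelled cell type had its defining markers. That sum is mostly Stmn2, at 21651 to 26150 over the 9 arrays. Among the 6, Syt1 and Snap25 rose at 6 h (1.68 and 0.72, adjusted p = 0.00495 and 0.00111, on 2 of 3 and 1 of 2 probe sets) and Tubb3 fell (-0.83, adjusted p = 0.00056). Syt1 had passed at 1 h too (1.81, adjusted p = 0.0149). Map2 and Stmn2 did not pass on their brightest probe sets, but 1 of 4 and 1 of 2 probe sets rose at 6 h. Astrocyte markers were present too. The sum of 6 of them was 29324 to 33940 at 0 h, 22202 to 26926 at 1 h and 25969 to 28470 at 6 h. The 2 of 7 lower at 6 h were Gfap, on 2 of its 3 probe sets, and Aqp4, on 1 of 3. Slc1a3 was lower at 1 h (-0.54, adjusted p = 0.0282), and 1 of its 5 probe sets rose at 6 h. The sums of 5 microglial markers were 886 to 1024 at 6 h and 676 to 989 at 0 h, with 1 of 5 higher. Of 6 interneuron class markers other than the peptides 1 fell at 6 h, the calcium-binding protein gene Calb2 (-0.74, adjusted p = 0.00574), as did 1 of 8 vascular and fibroblast markers, and none of 6 oligodendrocyte markers passed, with 0 at an unadjusted p under 0.05. The part of these markers in the changes of the precursors was not tested.

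Of 25 listed receptors for the 10 peptides, 18 were measured. At 6 h, 3 rose and 1 fell, with a median log2 difference of -0.14, a share near the 22.1% of set A probe sets that passed. At 1 h none rose and 1 fell, with a median of 0.01, where 4.17% of set A probe sets passed. The fall was that of Ntsr1, the neurotensin receptor found on neurons. Its signals were 2103, 2102 and 1691 at 0 h, 1244, 1293 and 1080 at 1 h, and 110, 137 and 114 at 6 h, with no overlap between times. Ntsr1 was lower by -0.70 ± 0.15 at 1 h (adjusted p = 0.0233) and by -3.86 ± 0.15 at 6 h (adjusted p = 8.71e-09). Over the same 6 h, its ligand gene Nts was higher, as given above.

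Sstr2, a somatostatin receptor, read 361, 343 and 326 at 0 h, 436, 390 and 348 at 1 h, and 860, 834 and 831 at 6 h. It was higher at 6 h than at 0 h by 1.26 ± 0.15 (adjusted p = 9.97e-05), with the 6 h arrays above all others. Cckbr, the cholecystokinin receptor of the brain, read 129, 171 and 135 at 6 h, against 28.3, 41.0 and 90.5 at 0 h, where 2 arrays were below the background level. Its difference was 1.31 ± 0.42 (adjusted p = 0.0387), on 1 of its 2 probe sets. Npy1r, a receptor of neuropeptide Y, was named after its values were seen, as the remaining one of the 4. It read 85.7, 94.6 and 83.3 at 0 h, 294, 149 and 177 at 1 h, and 184, 195 and 258 at 6 h. The 6 h difference was 1.12 ± 0.28 (adjusted p = 0.0115, on 1 of 2 probe sets), and that of 1 h was 1.05 ± 0.28 (adjusted p = 0.0531). Adcyap1r1, the PACAP receptor, and Oprl1, the nociceptin receptor, did not pass on their brightest probe sets (-0.56 and -0.50 at 6 h, adjusted p = 0.376 and 0.0638), but on each gene 1 of 3 probe sets fell at 6 h. The brightest receptors that did not pass were Sort1, a sorting protein that also binds neurotensin (0.10 at 6 h, adjusted p = 0.751), and the somatostatin receptor Sstr4 (0.12 on set B, adjusted p = 0.938).

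**Figure D5:**
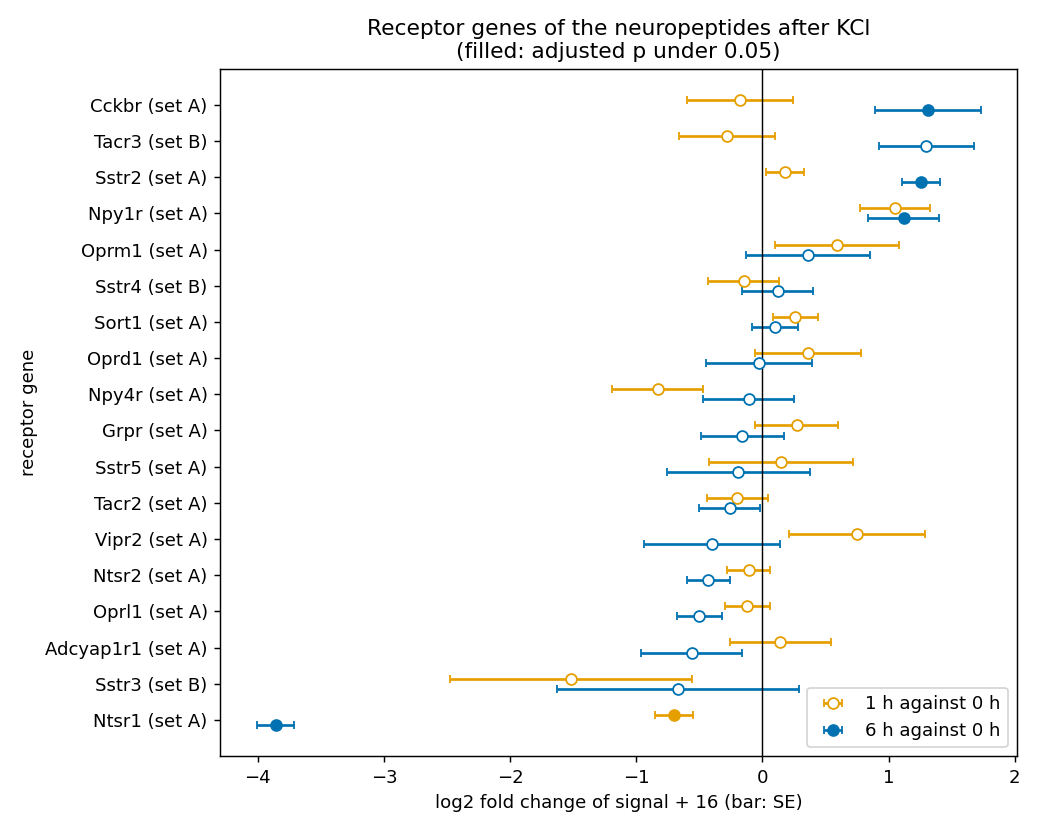
Log2 difference at 1 h and at 6 h against 0 h (x axis) for the measured receptors of the 10 peptides (y axis), with standard errors as bars and filled points where the adjusted p passed. Ntsr1 stands apart at -3.86 at 6 h, and Sstr2 lies at 1.26.

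Of 22 listed genes that process peptide precursors or build dense-core granules, 20 were measured. At 6 h, 5 rose and none fell, with a median of 0.20, a number of calls close to what the 22.1% of set A probe sets that passed would give. At 1 h, 4 rose and none fell, with a median of 0.16, where 4.17% of set A probe sets passed. Pcsk1, the convertase that makes the first cuts in many precursors, read 79.5, 87.7 and 11.4 at 0 h, 105, 221 and 186 at 1 h, and 2237, 1979 and 1983 at 6 h. The 6 h arrays lay far above the others, with a fitted difference of 5.01 ± 0.42 (adjusted p = 9.62e-06) against a 0 h level at about background, 1 of 3 arrays being below it, while the 1 h difference of 1.47 ± 0.42 did not pass (adjusted p = 0.0685). Scg2, a granin of the granule core, read 1678, 1790 and 1722 at 0 h, 4888, 5738 and 5107 at 1 h, and 16350, 16791 and 16018 at 6 h. It rose by 1.59 ± 0.10 at 1 h (adjusted p = 9.75e-07) and by 3.23 ± 0.10 at 6 h (adjusted p = 1.52e-09), with no overlap between times. Vgf, a secreted precursor of the same granules, rose on set B by 2.14 ± 0.24 at 1 h (adjusted p = 0.00182) and by 2.76 ± 0.24 at 6 h (adjusted p = 4.89e-05).

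Pam amidates the carboxy terminus of peptides such as PACAP, substance P, cholecystokinin and neuropeptide Y. It read 438, 356 and 437 at 0 h, 1016, 629 and 1000 at 1 h, and 2102, 1824 and 1939 at 6 h. Pam rose by 1.05 ± 0.18 at 1 h (adjusted p = 0.00717) and by 2.21 ± 0.18 at 6 h (adjusted p = 7.68e-06). Cadps2, which primes granules for release, read 515, 509 and 493 at 1 h, against 267, 264 and 205 at 0 h (1.01 ± 0.18, adjusted p = 0.00786), and did not pass at 6 h (0.27, adjusted p = 0.33). Ptprn, a granule membrane protein, was named after its values were seen, as the remaining gene that rose at 6 h (0.96 ± 0.14, adjusted p = 0.000375). Cpe, the carboxypeptidase that trims the cut ends, did not pass at 1 h (-0.38, adjusted p = 0.109) or at 6 h (0.12, adjusted p = 0.553). Scg3, like Cpe among the brightest that did not pass, differed by 0.13 at 1 h (adjusted p = 0.605) and 0.18 at 6 h (adjusted p = 0.327).

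Of 51 other neuropeptide precursors listed, 27 were measured. At 6 h 1 rose and 1 fell, with a median of 0.06, where 22.1% of probe sets passed on set A and 4.999% on set B. Nppc, the precursor of C-type natriuretic peptide, read 304, 328 and 164 at 6 h, against 128, 116 and 64.1 at 0 h (1.24 ± 0.32, adjusted p = 0.014). Cbln1, a synapse organiser whose product was once known as the source of the peptide cerebellin, read 230, 329 and 406 at 6 h, against 963, 720 and 844 at 0 h (-1.37 ± 0.20, adjusted p = 0.00039). Cort, the precursor of cortistatin, a relative of somatostatin, read 466, 729 and 1057 at 0 h, 595, 1003 and 983 at 1 h, and 915, 1544 and 1597 at 6 h, and its 6 h difference of 0.87 ± 0.30 did not pass (adjusted p = 0.0521). Oxt, like Cort among the brightest that did not pass, differed by 0.00 at 6 h (adjusted p = 0.997). At 1 h none of the 27 passed in limma, with 2 at an unadjusted p under 0.05.

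The named genes whose log2 signal ran most like that of each changed precursor were looked up over the 9 arrays of set A, among 9971 genes, by Pearson's r. These correlations are descriptions, since arrays of one time share their KCl exposure and every gene that differs between times correlates with the others. For Adcyap1 they were Pitpna and Nap1l1 (r = 0.99 for both), which were 0.94 and 0.77 log2 units higher at 6 h than at 0 h. Pou3f1 and Lmna (r = 0.99 for both) ran closest to Pnoc, Csrp1 (r = 0.98) and Rpl8 (r = 0.97) to Tac1, and Stmn2 and Ecpas (r = 0.97 for both) to Nts. For Grp they were Lemd2 (r = 0.98) and Tmem158 (r = 0.97), lower at 6 h by -0.70 and -0.60. Likeness in r does not mean likeness in size, since Stmn2 differed by 0.16 at 6 h and Nts by 1.43.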

How the data were processed

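Intensities were deposited by the authors as 1 linear summary value per probe set and array. Per the labels' protocols, 200 ng of total RNA was labelled as biotinylated cRNA with the Enzo kit. Nothing in the sources used here names the scanner software or summary method. Negative values occur in the 3 replicate 1 arrays of set B alone. They were replaced by 0, and log2 of the value plus 16 was used. Set A kept its scale (array medians within 0.24 log2), and set B (0.56) was quantile-normalized. The 64 control probe sets and the dimmest 25% were left out, and each set was fitted with limma 3.58.1 in R 4.3.3 (3 times, 9 arrays, eBayes with intensity trend). The p-values were two-sided, and the call threshold was an adjusted p of 0.05. Precision is limited by the number of arrays. Probe sets with several symbols or none, 2246 on set A and 7850 on set B, were not named. A gene stands for its brightest tested probe set, set A first. From each list, up to 3 genes past the threshold and the 2 brightest others were named, with some further genes beside them. The members, lists and tests were chosen with earlier results of these data known. Same-numbered arrays correlated in their deviations from the time means between 0.15 and 0.48 on set B, which counted as paired, and between 0.02 and 0.17 on set A, which did not. Arrays of unlike number correlated between -0.31 and 0.20 on set B, where 14 of 18 comparisons were best with their own number. The set B values of 0.45 to 0.48 were all between replicate 1 arrays. Same-numbered arrays of replicates 2 and 3 gave 0.15 to 0.21, and arrays across these replicates 0.13 to 0.20. The pairing on set B thus rests on replicate 1. The fits were tested on simulated data. Alternatives changed the offset, filter, scaling and variance model, left out each array, or added the replicate number, the split of set B arrays by negative values or the Gapdh 5′ to 3′ ratio. Figures were drawn with matplotlib 3.10.9 in Python 3.11.15, with version 1.17.8 of the data.table package for handling the data and statmod 1.5.0 for the robust fits.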

Additional observations from a re-analysis of the deposited data

Results flagged for a closer look

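For 4 precursors the effect at 6 h differed from that at 1 h, both against 0 h, in the limma fit of 6 h against 1 h. In that fit 11.6% of the 16969 set A probe sets passed. The difference between these effects was 2.19 log2 units for Adcyap1, 1.54 for Pnoc, 1.39 for Tac1 and 0.68 for Cck, with adjusted p of 2.46e-05, 0.000323, 0.00308 and 0.0169. For Adcyap1, Pnoc and Tac1 all 3 arrays at 6 h lay above all 3 at 1 h and at 0 h, and for Cck all 3 at 6 h lay above those at 1 h alone. The 6 h arrays also lay above those at 1 h for Nts, Vip and Penk and below them for Grp, although these differences did not pass. The share of all set A probe sets without overlap is not given here, so nothing is read from how many precursors lacked it. The Cck call was lost in 3 of 19 alternatives.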

How the results depend on the processing

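Over all alternatives, no called difference of a precursor changed its direction, and 28 of 247 refits of called differences no longer passed. Of the calls of the 10 precursors, those of Adcyap1 at 6 h on both sets, of Pnoc and Tac1 at 6 h and of Adcyap1, Pnoc and Tac1 at 6 h against 1 h on set A passed under every alternative run. The number of precursors that changed at 1 h was 2. It was 0 with the Gapdh ratio in the fit, and 1 without the variance trend, with median centring, without the filter or with quantile normalization, and 1 to 2 when single arrays were left out. The number at 6 h was 5. It was 3 with the filter raised to 50%, which left Nts and Grp untested, and 3 with the Gapdh ratio, and 5 to 6 when single arrays were left out. At 6 h against 1 h it was 4, and 3 to 5 when single arrays were left out. Set A did not count as paired, although 18 of 18 comparisons correlated best with the own number, against 14 of 18 on set B. Set A arrays of unlike number correlated between -0.14 and 0.03. The series text speaks of 3 independent experiments, and the sample titles give a replicate number. Under the replicate block (the number as a factor) the counts became 3, 7 and 5, and Sst (adjusted p = 0.00268) and Penk (0.0426) at 6 h, Cck at 1 h (0.0172) and Sst at 6 h against 1 h (0.00725) also passed. On set B the block changed no other call of a member than that of Adcyap1 at 1 h.

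Reversals were all of differences that did not pass. With the Gapdh ratio Npy at 6 h became 0.12, Penk at 6 h -0.01, and at 1 h Nts -0.13, Penk -0.66 and Vip -0.29. With median centring Penk at 1 h was 0.00 and Sst -0.04. When single arrays were left out, the 6 h differences ran from -0.06 to 0.20 for Cck and -0.24 to 0.17 for Npy. At 1 h they ran from -0.47 to 0.36 for Penk, -0.22 to 0.35 for Sst and -0.01 to 0.48 for Tac1, and at 6 h against 1 h from -0.01 to 0.39 for Tac1 on set B. Reversed values within these ranges were 0.16 for Npy, -0.13 for Penk, and -0.16, -0.05 and -0.01 for Sst. The cause was not tested.

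Over all set A probe sets, 707 changed at 1 h, 64 with the Gapdh ratio, 265 without the trend and 277 to 1308 with single arrays left out. At 6 h 3753 changed, and 584 with the Gapdh ratio, and at 6 h against 1 h 1964, and 1030 to 2149 with single arrays left out. On set B, 37, 844 and 397 changed at 1 h, at 6 h and at 6 h against 1 h. There the counts were 5, 150 and 12 without the trend, 5, 127 and 4 with median centring, and 15, 443 and 97 on the deposited scale. They were 118, 1470 and 859 with the replicate block, 112, 1429 and 808 with the arrays split by negative values as a block, and 18, 751 and 319 without the 3 replicate 1 arrays, an alternative chosen after seeing the data. With single arrays left out they ran from 9 to 69, 429 to 820 and 171 to 431. Signals near or below background limit the values of Nts, of Grp at 6 h and of Adcyap1 on set B at 0 h.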
